A study of Rattus norvegicus with 12 samples.

Results

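Megakaryocyte and platelet genes were followed through 12 libraries of bone taken from around mini-implants in rats. The set was given as 8 gene symbols, namely the surface glycoprotein genes Gp9, Gp1ba, Gp1bb, Gp5 and Gp6, the granule chemokine genes Pf4 and Ppbp, and the granule membrane receptor gene Treml1. Rows of the deposited table were taken by symbol, which found 6 of the 8 names among 33801 genes. No row carried the symbol Gp5 or Gp6. Of the 6 members found, 5 reached 1 FPKM (fragments per kilobase of gene, scaled by depth) in at least 3 libraries and were tested, and Gp1bb was listed at 0 throughout.

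All animals were wild-type rats, and their age, sex and strain are not given in the labels. The implants sat at the first molar of the upper jaw and were made of titanium, labelled cpTi, or of Zr58Cu25Al14Nb3, here the Nb3 alloy. They were put under cyclic load for 2 weeks or stayed static (non-loaded), and a piece of bone 4 mm across was taken. Each of the 4 groups, cpTi with and without load and Nb3 alloy with and without load, had 3 libraries. The labels do not say whether the 3 libraries of a group came from separate animals, so p-values measure only the spread between these samples, which may be technical.

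Megakaryocytes are the large marrow cells that shed platelets into the blood. Gp1ba, Gp1bb, Gp9 and Gp5 encode the parts of the platelet receptor complex that binds von Willebrand factor, and Gp6 encodes the platelet receptor for collagen. Pf4 and Ppbp encode chemokines stored in alpha granules, and Treml1 encodes a receptor held in the same granule membrane until platelets are activated. In this lineage many of the surface genes are driven by GATA factors together with ETS factors.

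Reads on genes numbered 16.8 to 22.3 M per library in loaded Nb3 alloy and 12.9 to 15.9 M in the other 9. All 3 libraries of loaded Nb3 alloy differed from the other 9 in composition. Mitochondrial genes took 11.97%, 24.3% and 11.3% of their reads in replicates 1, 2 and 3, against 4.31% to 6.86% in the other 9. Markers of osteoblasts, which define the tissue as bone, were present in every library, with sums of 6124 to 17100 FPKM in loaded Nb3 alloy and 3039 to 10597 FPKM in the others. The 6 members together held 505 to 1719 reads per library in loaded Nb3 alloy and 1144 to 5550 in the others. In loaded Nb3 alloy most of these were Pf4 reads, 781 of 793, 1559 of 1719 and 484 of 505 in replicates 1, 2 and 3. No batch or date is given in the labels.

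The stretch upstream of each start site is shown for 3 members because these genes moved together in the comparisons while their upstream letters differ. The sequences are RefSeq promoters of build GRCr8, matched by symbol for 7 of the 8 names (Pf4 was not matched), and cover the 250 bases before the start, written 5′ to 3′ on the gene's strand. Capitals mark a GATA motif (GATAA or GATAG after an A or a T) or an ETS motif (GGAAG after a C or an A), searched on both strands. No 2 matches overlapped. Gp1ba lies at chr10:55851309-55851558 on the plus strand, Gp9 at chr4:121792592-121792841 on the plus strand and Ppbp at chr14:17587300-17587549 on the minus strand.
Gp1ba: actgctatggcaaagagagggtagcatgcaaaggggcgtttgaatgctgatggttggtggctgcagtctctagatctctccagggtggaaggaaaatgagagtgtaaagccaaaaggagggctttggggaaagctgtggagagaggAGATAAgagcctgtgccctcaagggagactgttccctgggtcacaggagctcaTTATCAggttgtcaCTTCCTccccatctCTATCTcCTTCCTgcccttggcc
Gp9: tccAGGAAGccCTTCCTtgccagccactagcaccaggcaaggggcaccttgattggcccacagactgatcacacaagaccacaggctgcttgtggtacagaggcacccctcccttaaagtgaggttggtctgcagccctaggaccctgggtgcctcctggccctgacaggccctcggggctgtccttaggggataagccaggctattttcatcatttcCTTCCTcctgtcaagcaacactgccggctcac
Ppbp: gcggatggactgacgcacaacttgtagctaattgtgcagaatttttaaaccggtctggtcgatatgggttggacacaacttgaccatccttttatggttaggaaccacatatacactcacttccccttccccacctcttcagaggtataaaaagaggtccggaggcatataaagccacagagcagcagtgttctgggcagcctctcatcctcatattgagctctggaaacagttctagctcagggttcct
The Gp1ba stretch held 3 GATA and 2 ETS motifs, the GATA motifs at 104, 51 and 23 bases before the start. The Gp9 stretch held 3 ETS and 0 GATA motifs, and neither Ppbp nor Treml1 had a match. A GATA motif was present in 4 of the 7 matched promoters (Gp6, Gp1ba, Gp5 and Gp1bb), against 27.0% of 33469 promoters of that length in the table. An ETS motif was present in 5 of the 7, against 39.4%. Both kinds stood together in 4 of the 7, against 9.81%. These letters describe the sequence and show no binding.

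Loading beside the Nb3 alloy came with low levels of the surface and granule receptor genes. Gp9, Gp1ba, Treml1 and Ppbp fell to between 0.561% and 3.92% of their non-loaded mean FPKM, while Pf4 stood at 47.3% of it and did not pass the test. In the fit, 4 of the 5 tested members were lower and 0 were higher. Of all 15268 tested genes 25.2% were lower and 20.7% higher, 45.8% in either direction. The median log2 difference of the 5 was -3.91, and that of all tested genes was -0.02. A call means an adjusted p under 0.05 (Benjamini-Hochberg, over all tested genes) in limma on log2(FPKM + 1), a scale that understates the change of low genes. In a piece of bone, fewer cells of a type and less RNA per cell cannot be told apart.

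Gp9 (ENSRNOG00000010015, chr4:120235421-120237110, plus strand) encodes the small subunit without which the receptor complex does not reach the surface. Its level was 0.328, 0.779 and 0 FPKM in replicates 1, 2 and 3 of loaded Nb3 alloy and 13.05, 26.5 and 21.0 FPKM in non-loaded Nb3 alloy. In loaded cpTi it was 14.4, 12.8 and 9.83 FPKM, and in non-loaded cpTi 13.5, 6.603 and 12.3 FPKM. All 3 loaded Nb3-alloy libraries lay below all 9 others, and the other 3 groups overlapped each other. The loaded and non-loaded Nb3-alloy means were 0.369 ± 0.391 and 20.2 ± 6.76 FPKM (SD, n = 3 each), a ratio of 54.7. These rested on 18 and 877 reads in all. The 0 in replicate 3 allows up to 0.187 FPKM, the level that 3 reads would give. On the log2 scale Gp9 fell by 3.94 (SE 0.31, limma adjusted p = 4.49e-06).

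Gp1ba (ENSRNOG00000025959, chr10:55352899-55356774, plus strand) encodes the chain that binds von Willebrand factor. Its level was 0.0493, 0 and 0.0939 FPKM in loaded Nb3 alloy, from 3, 0 and 6 reads. It was 7.02, 9.15 and 9.37 FPKM in non-loaded Nb3 alloy, 6.98, 5.40 and 5.01 FPKM in loaded cpTi, and 5.998, 2.75 and 4.58 FPKM in non-loaded cpTi. Again the lowest 3 libraries were those of loaded Nb3 alloy, and every library of the other groups had at least 2.75 FPKM. Group means beside the alloy were 0.0478 ± 0.0470 FPKM with and 8.51 ± 1.30 FPKM without loading, a ratio of 178 that rests on 9 reads in the loaded group. The 0 in replicate 2 allows up to 0.0451 FPKM. Gp1ba fell by 3.17 on the log2 scale (SE 0.22, limma adjusted p = 1.56e-06).

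Gp1bb (ENSRNOG00000046981, chr11:82378199-82379392, plus strand), the partner chain of Gp1ba, had 0 reads in all 12 libraries. This allows up to 0.173 to 0.232 FPKM per library, but only if reads from Gp1bb could be assigned to it. Its span lies 100% inside Septin5, a septin gene on the same strand (chr11:82369754-82379393). Septin5 was at 19.0 ± 5.94 FPKM in loaded Nb3 alloy, 27.4 ± 3.97 in non-loaded Nb3 alloy, 18.7 ± 3.37 in loaded cpTi and 19.4 ± 3.79 in non-loaded cpTi. Its log2 difference with loading in Nb3 alloy was -0.55 (limma adjusted p = 0.0788). How the counting treated reads shared by overlapping genes is not given in the labels or notes, and the levels of both genes are therefore uncertain. Of 586 protein-coding genes that lie inside another on the same strand, 33.96% were at 0 in every library, against 16.7% of all 23096 protein-coding genes. These shares take no account of gene length or tissue, and the part of the overlap in the 0 of Gp1bb was not tested.

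The other subunit of the complex and the collagen receptor were looked up by the descriptions that the deposited table gives its rows, a choice made after the symbols were found to be missing. These rows stand outside the symbol rule. ENSRNOG00000038540 (chr11:70443613-70446705), described as platelet glycoprotein V, was at 0.219, 0.675 and 0.156 FPKM in loaded Nb3 alloy and 17.1, 24.3 and 20.3 FPKM in non-loaded Nb3 alloy. In loaded cpTi it was at 16.6, 9.15 and 11.8 FPKM, and in non-loaded cpTi at 17.5, 6.95 and 13.2 FPKM. It fell by 4.003 on the log2 scale with loading in Nb3 alloy (SE 0.30, limma adjusted p = 3.02e-06), close in size to Gp9.

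ENSRNOG00000047204 (chr1:69465789-69491326), described as platelet glycoprotein VI, was at 0, 0.283 and 0 FPKM in loaded Nb3 alloy and 7.23, 13.9 and 9.09 FPKM in non-loaded Nb3 alloy. Loaded cpTi had 8.70, 5.75 and 6.36 FPKM, and non-loaded cpTi 7.30, 2.47 and 6.86 FPKM. It fell by 3.30 (SE 0.33, limma adjusted p = 2.27e-05). A second row 18351 bases away, ENSRNOG00000062480 (chr1:69429269-69447438), is described by its similarity to human glycoprotein VI. It was at 11.6, 30.8 and 5.15 FPKM in loaded and 12.3, 11.5 and 21.2 FPKM in non-loaded Nb3 alloy, and at 8.43 to 14.2 FPKM in the 6 cpTi libraries. Its libraries overlapped between all groups, and its log2 difference was -0.19 (95% interval -1.23 to 0.85, limma adjusted p = 0.764).

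Treml1 (ENSRNOG00000040109, chr9:12635590-12642347, minus strand) was at 0.191, 1.35 and 0.501 FPKM in loaded Nb3 alloy and 14.2, 28.4 and 30.8 FPKM in non-loaded Nb3 alloy. It was at 14.3, 12.1 and 16.1 FPKM in loaded cpTi and 23.0, 8.75 and 15.2 FPKM in non-loaded cpTi. As for Gp9, the 3 loaded Nb3-alloy libraries lay below all others. The mean went from 24.5 ± 8.99 to 0.682 ± 0.603 FPKM with loading, a ratio of 35.8 (log2 difference -3.91, SE 0.37, limma adjusted p = 1.59e-05).

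Ppbp (ENSRNOG00000002829, chr14:17302326-17303130, minus strand) encodes the second granule chemokine of the set. Its level was 0, 18.2 and 0.656 FPKM in loaded Nb3 alloy, from 0, 116 and 4 reads. It was 67.9, 227 and 187 FPKM in non-loaded Nb3 alloy, 107, 88.2 and 101.2 FPKM in loaded cpTi, and 102, 26.001 and 79.9 FPKM in non-loaded cpTi. Replicate 2 of loaded Nb3 alloy, the highest of its group, still lay under the lowest of the other 9. The 0 in replicate 1 allows up to 0.517 FPKM. Ppbp fell by 5.50 on the log2 scale (SE 0.96, limma adjusted p = 0.000993), with a 95% interval of -7.62 to -3.38.

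**Figure D1:**
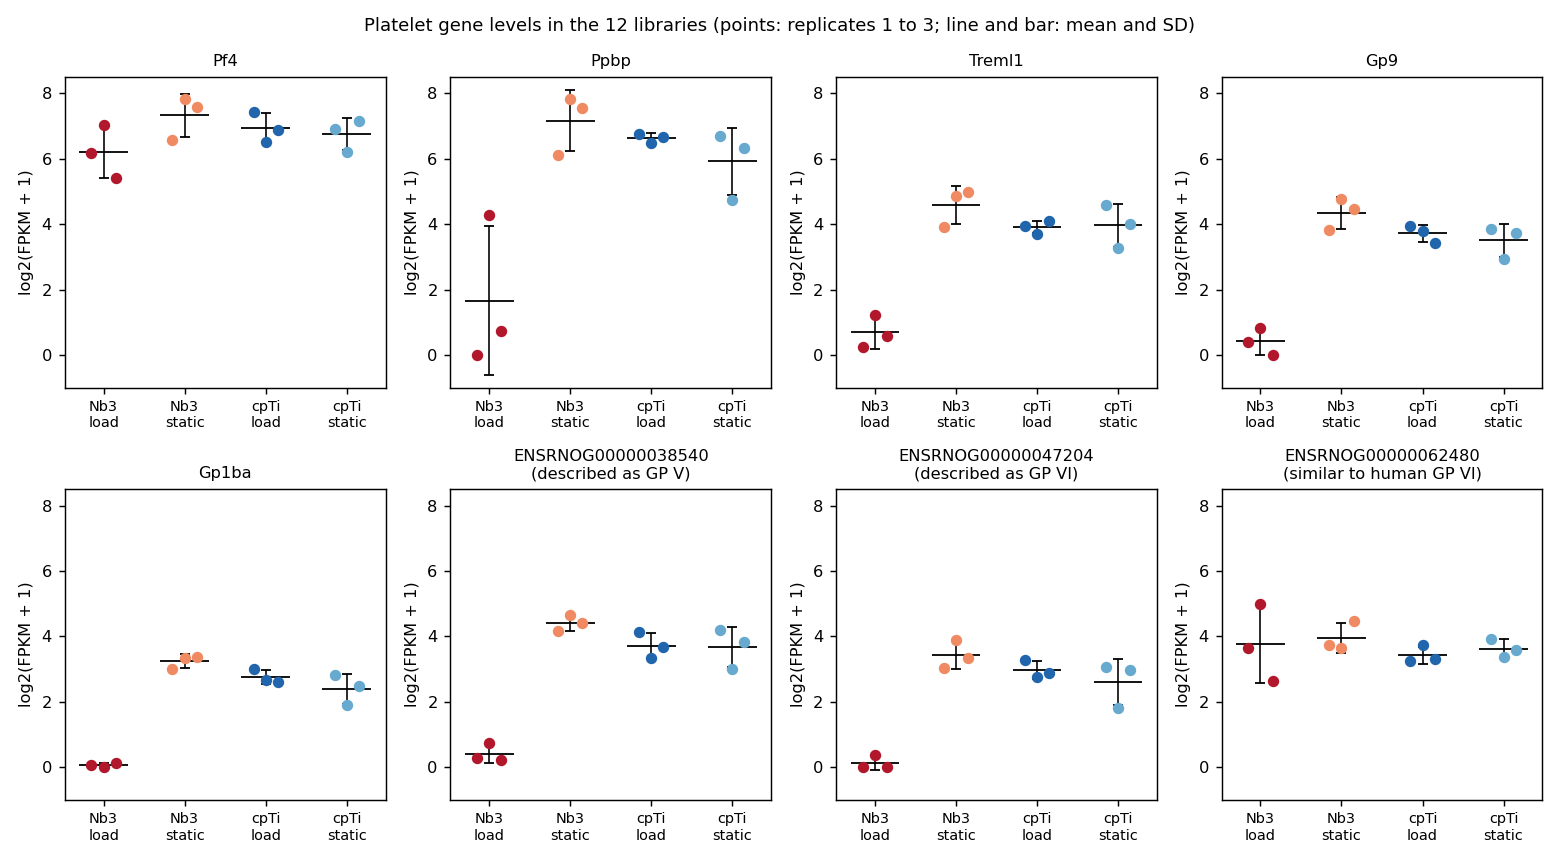
Levels of 5 members and 3 further rows as log2(FPKM + 1) by group, with 1 point per library, a line at the mean and a bar of 1 SD (n = 3). For Treml1, Gp9, Gp1ba, ENSRNOG00000038540 and ENSRNOG00000047204 the loaded Nb3-alloy points lie near 0 and below all others, while for Pf4 and ENSRNOG00000062480 they overlap the other groups.

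Pf4 (ENSRNOG00000028015, chr14:17298308-17299365, minus strand) did not follow this pattern. Its level was 71.2, 130 and 42.0 FPKM in loaded Nb3 alloy, from 781, 1559 and 484 reads. It was 95.03, 227 and 192 FPKM in non-loaded Nb3 alloy, 172, 91.0 and 117 FPKM in loaded cpTi, and 119, 73.2 and 141 FPKM in non-loaded cpTi. Replicates 1 and 3 of loaded Nb3 alloy were the lowest of the 12, but replicate 2 lay inside the range of each other group. Beside the alloy the means were 81.0 ± 44.7 FPKM with and 171 ± 68.4 FPKM without loading.

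The log2 difference of Pf4 with loading in Nb3 alloy was -1.13 (SE 0.44, 95% interval -2.10 to -0.15, limma adjusted p = 0.0580), which missed the threshold. It passed under 5 of 21 alternatives, over which limma's adjusted p ranged from 0.0137 to 0.202. Without replicate 2 of loaded Nb3 alloy it was -1.54 (limma adjusted p = 0.0137), and without replicate 1 of non-loaded Nb3 alloy -1.50 (limma adjusted p = 0.0219). Among the 15268 tested genes ordered by mean FPKM, Pf4 ranked 609 in loaded Nb3 alloy and 251 to 393 in the other groups. Gp1ba ranked 14927 in loaded Nb3 alloy and 7095 to 9767 elsewhere.

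The chemokine genes Pf4 and Ppbp lie 2961 bases apart on the same strand, and their levels parted in loaded Nb3 alloy. The Pf4 to Ppbp ratio of FPKM was 1.003 to 2.81 in the other 9 libraries. In loaded Nb3 alloy it was 7.11 in replicate 2 and 64.0 in replicate 3, and replicate 1 had no Ppbp reads to form it. The Pf4 to Gp9 ratio was 7.10 to 11.9 in the other 9 libraries, and 217 and 167 in replicates 1 and 2 of loaded Nb3 alloy. The Pf4 to Treml1 ratio was 5.16 to 12.02 in the other 9 and 83.8 to 372 in loaded Nb3 alloy. Thus in every library where a ratio could be formed, Pf4 stood higher against its partner in loaded Nb3 alloy than in any other library. The size of these ratios is imprecise where the partner had few reads. Ppbp had 116 and 4 reads in replicates 2 and 3 of loaded Nb3 alloy, and Gp9 had 5 and 13 in replicates 1 and 2. Treml1 had 4, 31 and 11 reads in replicates 1, 2 and 3.

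As differences of log2(FPKM + 1), the Pf4 to Ppbp value was 4.55 ± 1.71 with and 0.17 ± 0.27 without loading beside the Nb3 alloy (SD, n = 3 each). The Pf4 to Gp9 value rose from 2.98 ± 0.19 to 5.80 ± 0.39, and the Pf4 to Treml1 value from 2.74 ± 0.19 to 5.52 ± 0.59. For each of these 3 pairs the groups did not overlap, and the two-sided exact permutation test gave p = 0.1, the smallest that 3 against 3 libraries can give (0.133 adjusted over 8 tests of 4 pairs in 2 comparisons). This test therefore cannot reach the threshold for a ratio at this group size. The fourth pair, Ppbp to Gp9, had an exact permutation p of 0.4.

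**Figure D2:**
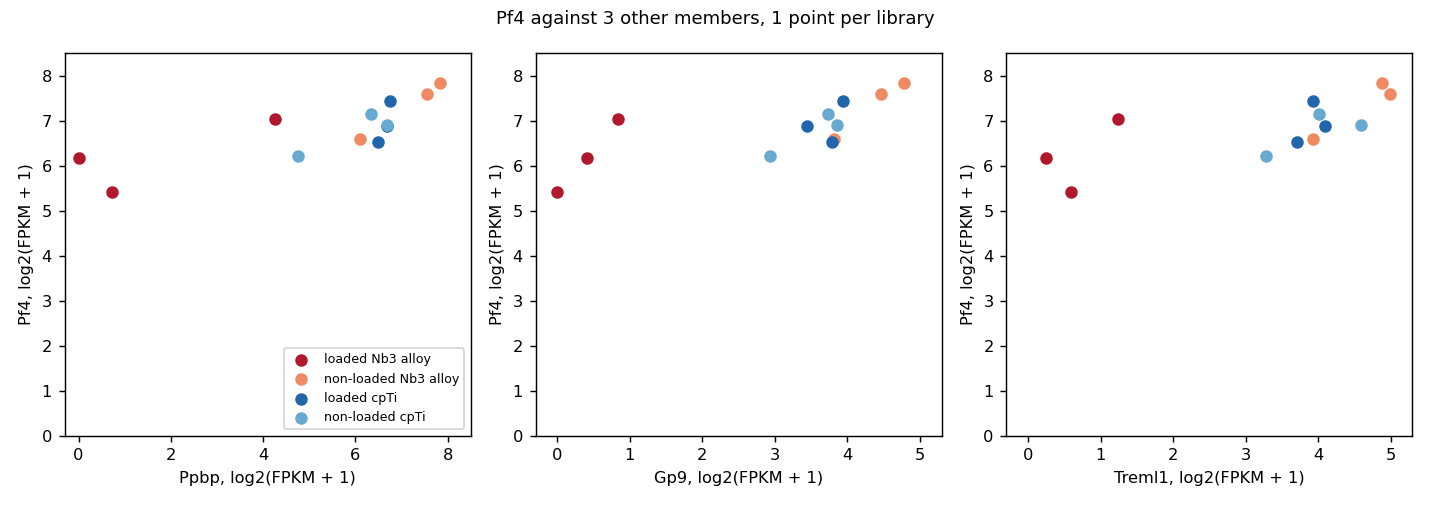
Pf4 against Ppbp, Gp9 and Treml1, each as log2(FPKM + 1), with 1 point per library coloured by group. The 3 loaded Nb3-alloy points lie to the left of the other 9 in each panel, at Pf4 levels of 42.0 to 130 FPKM.

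Macrophages can also express Pf4, so their markers are given beside it. The summed level of 8 macrophage markers was 508, 536 and 299 FPKM in replicates 1, 2 and 3 of loaded Nb3 alloy and 178 to 473 FPKM in the other 9 libraries, with at most 1 of the 8 at 0. Of the 7 tested, Cd68 rose with loading in Nb3 alloy, Cd163 fell and 5 were not called. Erythroid markers summed to 7.20 to 27.5 FPKM in loaded Nb3 alloy and 1396 to 2945 FPKM in the others, and neutrophil markers to 57.0 to 392 FPKM against 6408 to 21663 FPKM. Endothelial markers summed to 265 to 488 FPKM against 87.1 to 140 FPKM, and 6 of 7 tested rose. Mast cell markers summed to 13.3 to 27.1 FPKM against 153 to 283 FPKM, and 6 of 6 tested fell. Beside these marker counts, limma called 25.2% of all tested genes lower and 20.7% higher with loading in Nb3 alloy. Muscle markers summed to 159, 731 and 6.07 FPKM in replicates 1, 2 and 3 of loaded Nb3 alloy and 9.41 to 34.4 FPKM in the others, with up to 3 of the 6 at 0 in a library. The part of these cell types, of the mitochondrial share and of depth in the members' levels was not tested.

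Loading beside titanium called 0 of the 5 members, and limma called 0.00655% of all tested genes there, which is 1 gene (1062 at an unadjusted p under 0.05). No member had an unadjusted p under 0.05, and limma-voom on the recovered reads also called 0 of the 5. The log2 differences were 0.22 for Gp9 (95% interval -0.47 to 0.90), 0.36 for Gp1ba (-0.13 to 0.84) and -0.05 for Treml1 (-0.86 to 0.76). For Ppbp the difference was 0.71 (-1.41 to 2.83), and for Pf4 it was 0.19 (-0.79 to 1.16). Each of the 5 intervals leaves out the log2 difference that the same gene had in Nb3 alloy, but this ignores the error of that difference. For Pf4 the 95% interval of the difference between both loading effects was -2.69 to 0.07, which includes 0. In non-loaded cpTi, replicate 2 was the lowest library for all 5 members. Without it the log2 difference of Gp9 was -0.0757 and that of Pf4 -0.0835.

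The difference between both loading effects was called for the same 4 genes. It uses the same loaded Nb3-alloy libraries as the loading comparison in Nb3 alloy, so it is not a separate observation of them. The loading effect in Nb3 alloy minus that in cpTi was called below 0 for 4 of the 5 members and above 0 for none. Of all tested genes 11.8% were called lower and 8.42% higher, 20.2% in either direction. It was -4.15 for Gp9 (SE 0.44, limma adjusted p = 0.000151), -3.53 for Gp1ba (SE 0.31, limma adjusted p = 6.24e-05), -3.86 for Treml1 (SE 0.52, limma adjusted p = 0.000721) and -6.21 for Ppbp (SE 1.35, limma adjusted p = 0.0105). For Pf4 it was -1.31 (SE 0.63, limma adjusted p = 0.166), which did not pass. The rows described as glycoprotein V and VI had -4.05 for ENSRNOG00000038540 and -3.67 for ENSRNOG00000047204, both called. ENSRNOG00000062480, described by its similarity to human glycoprotein VI, had 0.0013 (95% interval -1.47 to 1.47, limma adjusted p = 0.999) and was not called.

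Under loading, bone beside the Nb3 alloy had lower levels than bone beside titanium for the same members. This comparison uses the same loaded Nb3-alloy libraries as the loading comparison, so it is not a separate observation of them. Of the 5 members 4 were lower and 0 higher. Of all tested genes 18.9% were lower and 14.7% higher, 33.6% in either direction. The log2 difference, Nb3 alloy minus cpTi, was -3.31 for Gp9, -2.69 for Gp1ba, -3.22 for Treml1 and -4.97 for Ppbp (limma adjusted p = 0.00301 for Ppbp, the highest of the 4). The mean FPKM was 33.5 times higher in loaded cpTi than in loaded Nb3 alloy for Gp9 and 20.7 times higher for Treml1. Pf4 stood at 81.0 ± 44.7 FPKM beside the alloy and 126 ± 41.2 FPKM beside titanium, with overlapping libraries (log2 difference -0.73, 95% interval -1.71 to 0.24, limma adjusted p = 0.226).

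Without loading, limma called 0 of the 5 members and 0% of all tested genes between the materials (470 genes at an unadjusted p under 0.05, smallest adjusted p = 0.247). Limma-voom also called 0 of the 5. All 5 differences lay above 0, from 0.58 for Pf4 to 1.24 for Ppbp, with the non-loaded Nb3-alloy mean 1.54 to 2.31 times the cpTi mean. At an unadjusted p under 0.05 were 2 of the 5, Gp1ba (0.84, unadjusted p = 0.00272 in limma) and Gp9 (0.84, unadjusted p = 0.0209 in limma). The Gp1ba libraries did not overlap, at 7.02 to 9.37 FPKM beside the alloy and 2.75 to 5.998 FPKM beside titanium. None of these differences passed after adjustment.

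By mean level the order of the groups was non-loaded Nb3 alloy, loaded cpTi, non-loaded cpTi and loaded Nb3 alloy for Gp9, Gp1ba, Pf4 and Ppbp. For Treml1 non-loaded cpTi came before loaded cpTi. The first 3 places rest on neighbours whose libraries overlapped, except that for Gp1ba the non-loaded Nb3-alloy libraries (7.02 to 9.37 FPKM) lay just above those of loaded cpTi (5.01 to 6.98 FPKM). The last place, of loaded Nb3 alloy, rests on libraries below all others for each of these genes but Pf4. Between genes, FPKM being per length, the order within a library was Pf4, Ppbp, Treml1, Gp9 and Gp1ba in 7 of the other 9 libraries. In replicates 1 and 2 of loaded cpTi Gp9 came before Treml1.

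**Figure D3:**
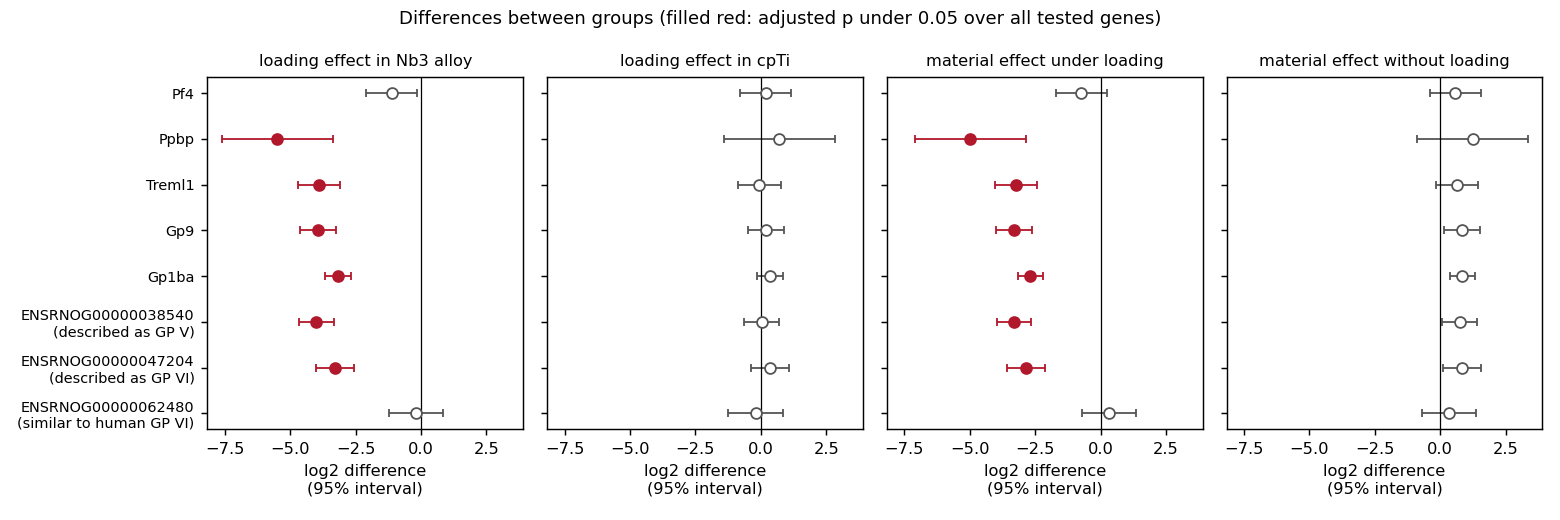
Log2 differences with 95% intervals for 5 members and 3 further rows in 4 comparisons, filled where limma's adjusted p was under 0.05. Filled points stand in the loading comparison in Nb3 alloy (-5.50 to -3.17) and the material comparison under loading (-4.97 to -2.69), and none in the other 2.

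Other genes of the lineage were read from 5 lists that leave out the members. In the loading comparison in Nb3 alloy, 9 of 14 tested surface receptor genes fell and 1 rose, with a median log2 difference of -1.37 against -0.02 for all tested genes. Among all tested genes 25.2% fell and 20.7% rose in that comparison. Itga2b, the integrin chain of the fibrinogen receptor, went from 32.2 ± 6.02 to 2.03 ± 1.25 FPKM (log2 difference -3.52). The podoplanin receptor gene Clec1b fell by 3.37 and the inhibitory receptor gene Mpig6b by 2.32 on the log2 scale. Cd9, a tetraspanin gene that many other cells express, rose from 83.8 ± 14.6 to 156 ± 23.2 FPKM (log2 difference 0.89, limma adjusted p = 0.00476).

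Of 13 tested granule genes 6 fell and 4 rose (median -0.44), where 25.2% of all tested genes fell and 20.7% rose. Srgn, the core protein of granule proteoglycan, which other blood cells make too, had a log2 difference of -3.58. The granule carrier gene Mmrn1 was at -3.38 and the clotting factor gene F5 at -3.10. Selp, the adhesion receptor P-selectin, rose from 7.40 ± 1.199 to 57.8 ± 46.9 FPKM (log2 difference 2.26, limma adjusted p = 0.0165). Pdgfb, a growth factor gene, rose by 1.52, and Vwf, which encodes von Willebrand factor, by 1.04 (limma adjusted p = 0.0375). Selp, Pdgfb and Vwf are also made by endothelial cells, whose markers rose in these libraries as given above, and their part was not tested. The Selp call was lost in 3 of 21 alternatives, in the fit of the compared groups alone (2.26, limma adjusted p = 0.0670), and without replicate 1 (1.93, limma adjusted p = 0.0609) or replicate 2 (1.58, limma adjusted p = 0.0576) of loaded Nb3 alloy, and its adjusted p ranged from 1.41e-05 to 0.0670 over all 21. The Vwf call was lost in 7 of 21 alternatives, with 0.62 without replicate 2 of loaded Nb3 alloy and limma adjusted p = 0.000253 to 0.121 over all 21.

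Of 12 transcription factor genes of the lineage 11 fell and 0 rose (median -1.71), where 25.2% of all tested genes fell and 20.7% rose. Gfi1b, a repressor shared with red cells, went from 38.4 ± 3.28 to 0.119 ± 0.103 FPKM (log2 difference -5.14). Gata1, the master factor of both lineages, went from 46.3 ± 4.92 to 0.431 ± 0.265 FPKM (log2 difference -5.06), and Nfe2, needed for platelet release, fell by 4.02. These factors are shared with erythroid cells, whose markers were low in the same libraries, and the part of each lineage was not tested. Among 14 signalling and cytoskeleton genes 10 fell and 1 rose (median -1.60), beside the same shares of all tested genes. Tubb1, the platelet form of beta-tubulin, fell by 4.37, Rasgrp2, an activator of the integrin switch Rap, by 3.03 and the lipoxygenase gene Alox12 by 3.01. The adaptor gene Lat, which T cells also express, rose by 0.77 (limma adjusted p = 0.0309), a call lost in 8 of 21 alternatives (limma adjusted p = 0.000505 to 0.113), among them without replicate 1 of loaded Nb3 alloy (0.47).

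In the thrombopoietin pathway, the main hormone route for platelet production, 3 of 4 tested genes fell and 0 rose (median -0.57). Among all tested genes 25.2% fell and 20.7% rose with loading in Nb3 alloy. The signal transducers Stat5a and Stat5b fell by 0.65 and 0.63, with Stat5b at 18.4 ± 2.01 FPKM in loaded Nb3 alloy. The adaptor gene Sh2b3, a brake on cytokine signalling, went from 33.8 ± 3.33 to 23.7 ± 4.25 FPKM (log2 difference -0.50, limma adjusted p = 0.00942). The Sh2b3 call was lost in 1 of 21 alternatives, the fit of the compared groups alone (limma adjusted p = 0.0541, with 0.000912 to 0.0541 over all 21). No row carried the symbol Thpo, the hormone gene. Loading beside titanium called 0 genes of each of the 5 lists. Under loading, Nb3 alloy against cpTi gave 9 lower and 1 higher among the 14 receptors, and 6 and 2 among the 13 granule genes. It gave 10 and 0 among the 12 factors, 9 and 0 among the 14 signalling genes, and 2 and 0 among the 4 of the thrombopoietin pathway. Of all tested genes 18.9% were lower and 14.7% higher there.

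**Figure D4:**
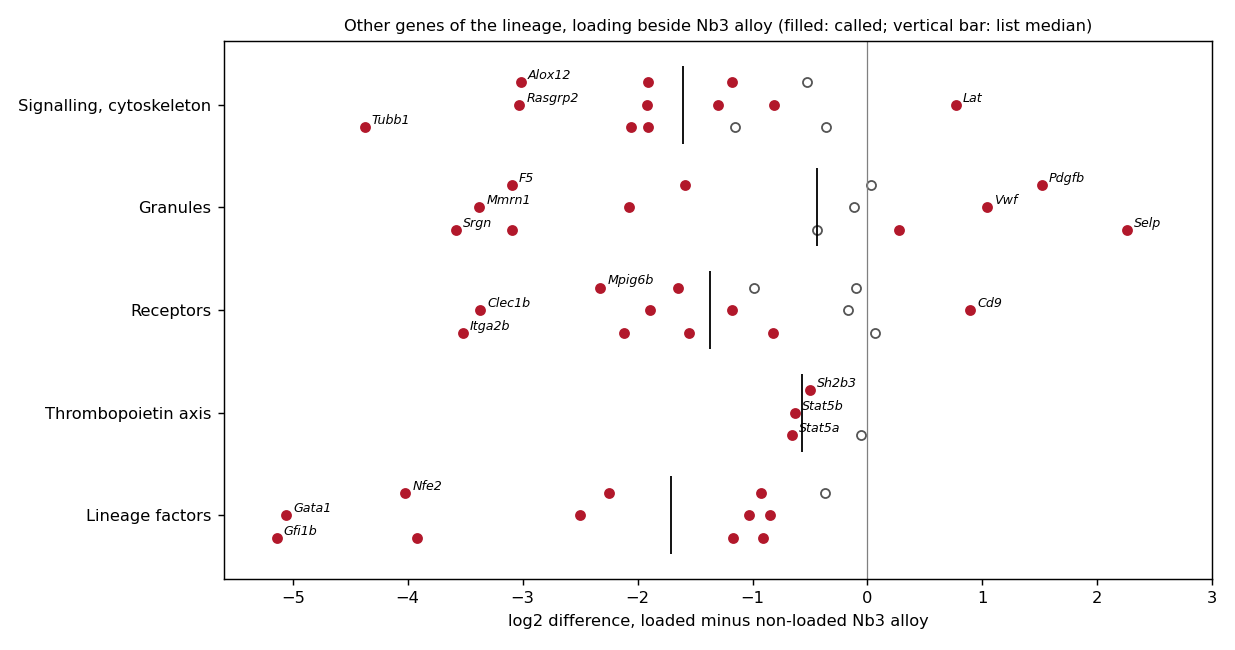
Log2 difference, loaded minus non-loaded Nb3 alloy, of each tested gene in 5 lists of the lineage, filled where limma's adjusted p was under 0.05, with a bar at each list's median. Lineage factors lie furthest to the left, with Gfi1b at -5.14 and Gata1 at -5.06, and the granule list is split, from Srgn at -3.58 to Selp at 2.26.

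Tested genes with a mean of at least 1 FPKM, leaving out the members, the glycoprotein V and VI rows and genes with a placeholder symbol or none (such as LOC or RGD names), numbered 11835 and were compared with the mean profile of the 5 tested members. Over the 12 libraries the highest Pearson correlations were those of Tubb1 (0.988), Mmrn1 (0.986), Acsl5 (0.984), Exoc6 (0.982), Itga2b (0.982), Rgs18 (0.980), Clec1b (0.979) and Cd226 (0.978). Of the 11835 genes 699 were above 0.9 over the 12 libraries and 28 over the 9 libraries without loaded Nb3 alloy. The highest over the 9 were Mmrn1 (0.974), Plek (0.973), Itga2b (0.969), Prmt7 (0.968), Golph3l (0.961), F2rl3 (0.949), Acsl5 (0.948) and Sh2d1b2 (0.946). Mmrn1, Itga2b and Acsl5 stood in both groups of 8. Pf4 itself correlated with Gp9 at 0.730 over the 12 libraries and at 0.863 over the 9, while Gp1ba correlated with Gp9 at 0.986 and 0.935. All these libraries share 1 depth scaling, and the correlations are a description without a test.

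Of 10 tested genes that overlap a member or lie beside it on the chromosome, 2 fell and 4 rose with loading in Nb3 alloy. These 6 of 10 called stand beside 45.8% of all tested genes called in that comparison, 25.2% lower and 20.7% higher, so the count says nothing particular about the neighbours. Rab43, beside Gp9, fell by 0.78, and Nfya, beside Treml1, by 0.54. Cxcl6, a chemokine gene 7296 bases from Ppbp, rose from 0.453 ± 0.00674 to 58.8 ± 53.4 FPKM (log2 difference 4.59, limma adjusted p = 0.000853). Trem2, a receptor gene of macrophages and osteoclasts 4912 bases from Treml1, rose from 4.85 ± 1.30 to 23.2 ± 7.01 FPKM (2.03, limma adjusted p = 0.000138). Efcc1, beside Gp9, and Tbx1, beside Gp1bb, rose by 1.29 and 1.24. The others, Slc25a11 and Rpl36a beside Gp1ba, Septin5 and ENSRNOG00000001893, were not called, and the unannotated row beside Pf4 was not tested.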

How the data were processed

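Per the labels' protocols, RNA was extracted with TRIzol and the polyadenylated part went into NEBNext Ultra libraries. The authors deposited 1 table of FPKM with gene length (another deposited column, in bases), symbol and position. Of tools, the submitters' processing notes list HISAT2 2.0.5 and featureCounts 1.5.0-p3, DESeq2 1.20.0, CASAVA 1.8 and fastp, with no roles. Which genome build, annotation and strand setting were used is not given in the sources used here. Gene positions are those of the deposited table, while promoter positions are those of the RefSeq promoters of build GRCr8.

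FPKM multiplied by length came in whole steps of 1 read in each library (100% of values within 0.01 read), which gave the reads. The depth behind the deposited FPKM matched size factors by median of ratios, computed anew from these reads (ratio 0.992 to 1.02). Intervals and limits from reads cover counting error only.

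Genes with at least 1 FPKM in at least 3 libraries were tested (15268; 18533 were not) with limma 3.58.1 in R 4.3.3. The fit used log2(FPKM + 1), all 12 libraries, 1 mean per group, 8 residual degrees of freedom and trended, robust moderation, with Benjamini-Hochberg adjustment over all tested genes. The design foresaw a count model for counts. Because the file held FPKM, limma was used, and limma-voom on the recovered reads was an alternative. The others were recomputed size factors, total-read scaling, quantile normalization, 2 filters, a replicate block, a pseudocount of 0.1, a fit of the compared groups only, and leaving out the 12 libraries 1 at a time. The procedure was tested on simulated data. scipy 1.17.1, pandas 2.3.3, numpy 2.4.6, Python 3.11.15, matplotlib 3.10.9 and statmod 1.5.0 served tables, plots and moderation.

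The members and the lists were chosen with earlier results of these data known. Named besides the members are, per wider list, up to 3 called genes of largest change in each direction with loading in Nb3 alloy, the 8 genes most alike in profile, and the genes next to a member. A gene of the thrombopoietin list is not reported here.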

Additional observations from a re-analysis of the deposited data

Results flagged for a closer look

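The loading effect differed between the materials, by the interaction term of the limma fit, for 4 members and 2 further rows. The difference of the effects, Nb3 alloy minus cpTi, was -6.21 for Ppbp (limma adjusted p = 0.0105), -4.15 for Gp9 (limma adjusted p = 0.000151), -3.86 for Treml1 (limma adjusted p = 0.000721) and -3.53 for Gp1ba (limma adjusted p = 6.24e-05) on the log2 scale. For the rows described as platelet glycoproteins V and VI it was -4.05 for ENSRNOG00000038540 (limma adjusted p = 0.00014) and -3.67 for ENSRNOG00000047204 (limma adjusted p = 0.000477). Each of the 6 was lower in 3 of 3 loaded Nb3-alloy libraries than in all other libraries. The share of all tested genes with such a full separation was not counted, so it is not shown to be particular to the 6. The row described by its similarity to human glycoprotein VI, ENSRNOG00000062480, had a difference of 0.0013 and was not called. Of all tested genes 20.2% were called in this comparison, so a call there is common.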

How the results depend on the processing

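The calls of Gp9, Gp1ba, Treml1 and Ppbp held in all 21 alternatives of both comparisons with loaded Nb3 alloy and all 20 of the interaction, and in the other 2 comparisons 0 members were called throughout. The comparisons with these calls share the loaded Nb3-alloy libraries. Members called with loading in Nb3 alloy numbered 4 to 5. The count of all genes called moved more, and with it the share of all tested genes called. With loading in Nb3 alloy, 6996 in the reported fit, it was 5599 to 6948 with 1 library left out. In the fit of the compared groups alone it was 5558, and with limma-voom 7049. For the materials under loading, 5123 in the reported fit, it was 3429 to 5152 with 1 library left out. There it was 3963 in the compared groups alone and 5216 with limma-voom. For loading beside titanium, 1 in the reported fit, it was 3 with quantile normalization, 2 without a filter, 2 with 1 FPKM in 6 libraries, and 0 with the replicate block, the pseudocount of 0.1, limma-voom or the compared groups alone, and 0 to 4 with 1 library left out (4 without replicate 1 of non-loaded cpTi). For the materials without loading, 0 in the reported fit, it was 1 without a filter and 0 to 4 with 1 library left out (2 without replicate 2 of loaded Nb3 alloy, 4 without replicate 1 of non-loaded cpTi). For the interaction, 3089 in the reported fit, it was 1986 to 3159 with 1 library left out (2018 without replicate 3 of non-loaded Nb3 alloy, 1986 without replicate 1 of loaded cpTi).

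Total-read scaling moved the median of all genes with loading in Nb3 alloy from -0.02 to -0.17, and calls from 3156 higher and 3840 lower to 2265 and 4679, while quantile normalization gave 3573 and 3337. For the materials under loading the reported 2239 higher and 2884 lower became 1354 and 3679, or 2727 and 2456. Pf4 with loading in Nb3 alloy passed with total-read scaling (-1.31, limma adjusted p = 0.0212), quantile normalization (-1.15, limma adjusted p = 0.0252) and limma-voom (-1.14, adjusted p = 0.0483), and the cause was not tested.

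Changes of sign touched only values that were not called. The largest of these in the reported fit was 0.36, for ENSRNOG00000047204 with loading beside titanium. The interaction of ENSRNOG00000062480 was 0.0013 in the reported fit, -0.0221 with recomputed size factors, -0.18 with total-read scaling, -0.0181 with the pseudocount of 0.1, -0.0126 with limma-voom and -0.62 to 0.57 with 1 library left out. With 1 library left out, this row ranged from -0.81 to 0.37 for loading in Nb3 alloy and from -0.29 to 0.90 between the materials under loading. For loading beside titanium the ranges were -0.0757 to 0.39 for Gp9, -0.0835 to 0.40 for Pf4, -0.39 to 0.26 for Treml1, -0.30 to 0.31 for ENSRNOG00000038540 and -0.0430 to 0.59 for ENSRNOG00000047204.

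The labels do not say whether libraries with the same replicate number belong together. Deviations of libraries with the same number correlated at -0.252 to 0.115 across genes (median -0.04 over 18 pairs), and 0 of 12 libraries correlated best with its own number. With 3 libraries per group, these correlations cannot tell whether same-numbered libraries share an animal or a batch. With the replicate block, 6568 genes were called with loading in Nb3 alloy against 6996. Levels that rest on few reads, such as Gp1ba with 9 in loaded Nb3 alloy, limit the precision of the folds.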
